A study of Mus musculus with 6 samples.

Results

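Keratins 18, 8 and 19 (Krt18, Krt8, Krt19) and the intermediate filament genes of the muscle fibre and its neighbours, desmin (Des), vimentin (Vim), nestin (Nes), synemin (Synm) and syncoilin (Sync), were examined in the gastrocnemius muscle of young and aged mice. These are 8 of the 36710 genes with a probe on the array, counting a probe without a gene symbol by its own identifier, and they were represented by 12 probes, 5 of them for Synm and 1 for each other gene. The 8 symbols were chosen by the aged and young signals on these arrays, that is, with the differences of the group already known, so their differences between the ages are given as a description without a test.

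Total RNA of the gastrocnemius of 3 male mice at 13 weeks of age (young) and 3 male mice at 26 months (aged) was hybridized to single-colour Agilent arrays, 1 array per mouse. No treatment or transgene is given in the labels, and the study states that its mice were C57BL/6J. All 6 arrays were on 1 slide and read in 1 scan, with the 3 young mice and aged mouse 1 in row 1 of the slide and aged mice 2 and 3 in row 2. Signals were converted to log2 and are given relative to the 75th percentile of the array, so that 0 is that percentile. Values of single mice are listed in the order of mice 1, 2 and 3. The scanning software called 48.7% to 53.8% of the probes on an array well above background, and the number of arrays limits the precision. The tissue label was checked against 12 markers of the muscle fibre. Each of the 12 was well above background in every mouse, among them muscle actin Acta1 (9.14 to 10.07 over the 6 arrays) and muscle creatine kinase Ckm (9.41 to 10.05).

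Intermediate filaments are rope-like polymers that give a cell its resistance to stretch. In the muscle fibre, desmin filaments surround the Z-discs and tie neighbouring myofibrils to each other, to the nuclei and to the membrane, while synemin and syncoilin join these filaments to the membrane complex of dystrophin and dystrobrevin. Vimentin is the filament of fibroblasts, endothelium and other mesenchymal cells and of myoblasts, and nestin is made by satellite cells, newly formed fibres, endothelium and the fibre near the nerve contact and the tendon. Keratins polymerize only as pairs of a type I and a type II chain. Krt18 (type I) and Krt8 (type II) are the pair of simple epithelia, in which Krt19 (type I) can also pair with Krt8. In whole muscle, a lower signal from fewer cells of a type cannot be told apart from less RNA per cell.

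The type I gene Krt18 and the type II gene Krt8 were neighbours among the protein-coding genes of mouse chromosome 15 in RefSeq (GRCm38.p6), and they were the members with the largest differences between the ages. The bases before the start of transcription are therefore shown for both, with those of the muscle gene Des and the mesenchymal gene Vim for comparison. Each sequence is the 250 bases before the start in RefSeq (GRCm38.p6), read 5′ to 3′ on the strand of the gene. The array itself was annotated on mm9, and the promoters were matched by gene symbol, which found 7 of the 8 members. Capitals mark matches to the motifs given after the sequences.
Krt18 (chr15:102027966-102028215, plus strand): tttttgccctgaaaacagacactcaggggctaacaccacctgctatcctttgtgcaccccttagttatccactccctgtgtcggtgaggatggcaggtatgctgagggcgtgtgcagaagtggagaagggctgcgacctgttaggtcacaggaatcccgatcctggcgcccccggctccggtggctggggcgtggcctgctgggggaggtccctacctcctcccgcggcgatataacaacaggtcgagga
Krt8 (chr15:102004343-102004592, minus strand): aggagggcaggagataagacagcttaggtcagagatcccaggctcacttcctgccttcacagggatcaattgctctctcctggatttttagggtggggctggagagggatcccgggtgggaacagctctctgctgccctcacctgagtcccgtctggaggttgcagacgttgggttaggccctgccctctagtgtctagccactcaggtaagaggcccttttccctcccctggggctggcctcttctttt
Des (chr1:75360042-75360291, plus strand): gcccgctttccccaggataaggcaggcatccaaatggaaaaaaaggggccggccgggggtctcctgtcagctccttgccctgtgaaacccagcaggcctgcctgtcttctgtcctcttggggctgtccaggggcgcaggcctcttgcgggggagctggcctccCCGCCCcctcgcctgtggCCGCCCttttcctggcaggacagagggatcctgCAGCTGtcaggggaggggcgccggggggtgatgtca
Vim (chr2:13574061-13574310, plus strand): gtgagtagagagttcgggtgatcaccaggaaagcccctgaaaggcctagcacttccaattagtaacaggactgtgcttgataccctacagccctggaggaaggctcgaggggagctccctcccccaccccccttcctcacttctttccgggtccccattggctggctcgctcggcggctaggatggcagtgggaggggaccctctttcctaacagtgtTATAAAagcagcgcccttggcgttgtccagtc

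The motifs were searched on both strands. They were the TATA box (TATAAA, present in 12.4% of 32851 promoters of this length), the GC box (GGGCGG, 32.7%), the E-box of myogenic factors (CAGCTG, 13.0%), the Runx motif (TGTGGT, 14.0%), the AP-1 motif (TGANTCA, 6.75%), the CArG box (1.47%) and the MEF2 motif (0.508%). No match was found in the windows of Krt18 and Krt8, or in that of Synm. The Des window held 1 E-box, from 36 to 31 bases before the start, and 2 GC boxes. The Vim window held 1 TATA box, from 32 to 27 bases before the start. Nes had 2 and Sync had 3 GC boxes. The GC content of the window was 60.4% for Krt18, 58.0% for Krt8 and 67.2% for Des, and the median of all promoters was 52.4%.

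Krt18 showed the largest increase of the 20900 genes that could be compared. Its probe (NM_010664) gave -0.50, -1.82 and -1.33 in the 3 young mice and 3.85, 4.93 and 5.50 in the 3 aged mice, and was well above background on every array. In linear terms, the signal was 0.283 to 0.707 times the 75th percentile of the array in young mice and 14.4 to 45.4 times in aged mice. In young mice every value was thus below the 75th percentile and in aged mice every value was above it. The means were -1.22 ± 0.67 (SD, n = 3) and 4.76 ± 0.84 (SD, n = 3), a log2 difference of 5.98 (standard error 0.49) or 63.0-fold. Standard errors here and below come from a fit (limma) that draws each gene's variance toward that of all genes. The groups lay far apart. Even the lowest aged mouse was 20.4-fold above the highest young mouse. The order of the aged mice was mouse 3, mouse 2 and mouse 1. When the slide row was fitted as a block, so that aged mouse 1 was the aged mouse set beside the young mice, the log2 difference was 5.06.

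Krt8, the partner chain of Krt18, was well above background in aged mice only. Its probe (NM_031170) gave -2.02, -1.93 and -0.76 in the 3 aged mice, a mean of -1.57 ± 0.70 (SD, n = 3), and was well above background on all 3 of these arrays. It was well above background on 0 of the 3 young arrays, where the values of -4.36, -5.90 and -5.81 give only a bound. The lowest signal among probes well above background stands in for the dim array, or the probe's own signal where that is higher, and against the mean of these bounds (-3.99) Krt8 was at least 5.37-fold higher in aged mice. Krt8 passed the filter on dim probes through the aged arrays alone, so that a difference between the groups was built into its being kept. As for Krt18, aged mouse 3 was the highest and aged mouse 1 the lowest. With another background correction (normexp), which adds an offset and draws dim probes together, the measured log2 difference fell from 3.79 to 1.0.

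Krt19, the other type I chain of simple epithelia, was near the limit of detection and overlapped between the groups. Its probe (NM_008471) gave -3.72, -2.64 and -2.35 in the 3 young mice and -3.09, -3.48 and -3.81 in the 3 aged mice. All 6 values were called well above background, with the lower ones close to its edge, the lowest signal called well above background being between -4.20 and -3.83 on the arrays. The means were -2.91 ± 0.72 (SD, n = 3) and -3.46 ± 0.36 (SD, n = 3), a log2 difference of -0.55 (standard error 0.38). It was -0.96 without young mouse 1, -0.28 without young mouse 3, -0.31 with normexp background correction and -0.18 with slide row as a block. The aged mouse with the most Krt18 and Krt8, mouse 3, had the lowest Krt19 of the 6 mice.

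**Figure D1:**
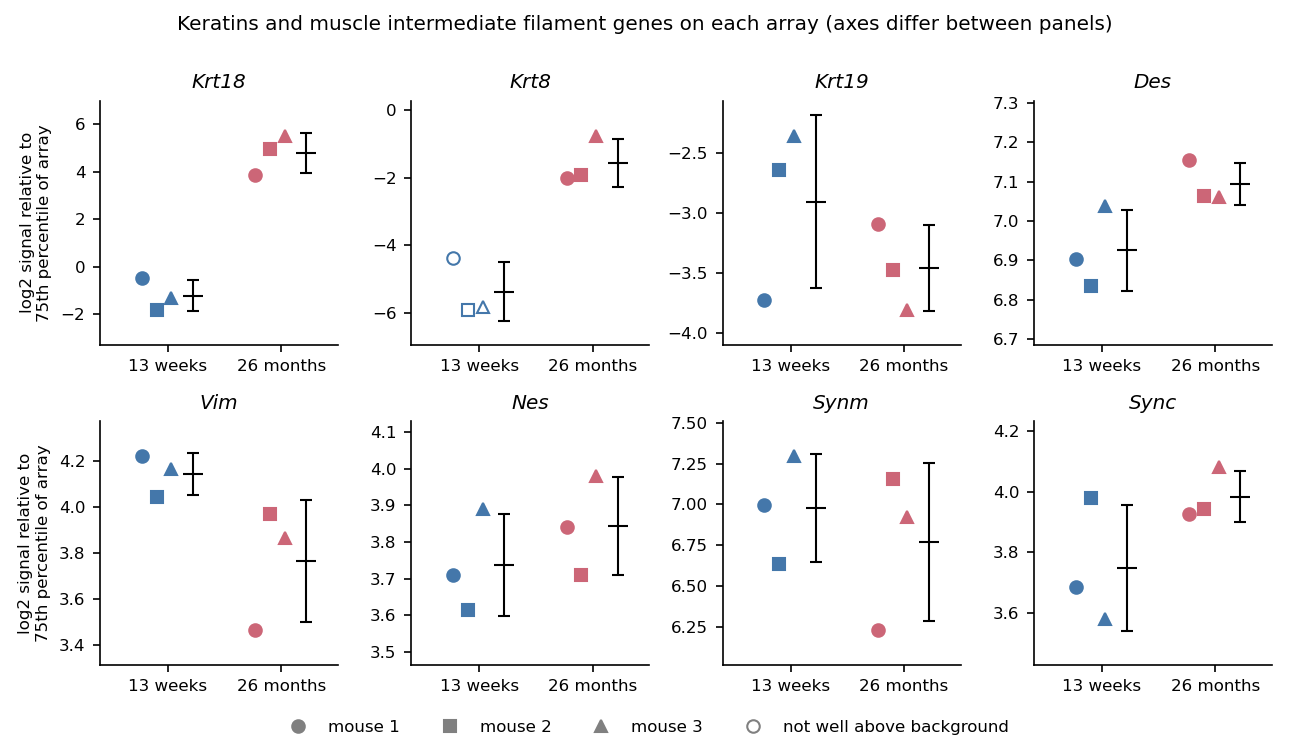
Log2 signal relative to the 75th percentile of the array (vertical axis, with its own range in each panel) of the 8 genes in 3 young (blue) and 3 aged (red) mice, with the mean and SD as a bar. Krt18 and Krt8 were separated by several log2 units, with all young values of Krt8 not well above background (open symbols), whereas the differences of the other 6 genes lay between -0.55 and 0.24.

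Desmin, the main filament protein of the muscle fibre, was nearly level. The Des probe (NM_010043) was printed in 10 spots on each array, and the SD between the spots was 0.029 to 0.053 on the log2 scale. It gave 6.90, 6.84 and 7.04 in the 3 young mice and 7.15, 7.06 and 7.06 in the 3 aged mice. The aged values were all above the young values, with a gap of 0.024 between the nearest mice. The means were 6.93 ± 0.10 (SD, n = 3) and 7.09 ± 0.05 (SD, n = 3), a log2 difference of 0.17 (standard error 0.15), or 1.12-fold. For Des this standard error of the fit is larger than the SDs between its own mice would give. It was 0.021 when arrays were scaled to their median, a scaling that lowers the median difference of all genes by 0.15, and 0.28 after quantile normalization.

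Vimentin was lower in every aged mouse than in every young mouse. The Vim probe (NM_011701) gave 4.22, 4.04 and 4.17 in the 3 young mice and 3.46, 3.97 and 3.86 in the 3 aged mice. The means were 4.15 ± 0.09 (SD, n = 3) and 3.77 ± 0.27 (SD, n = 3), a log2 difference of -0.38 (standard error 0.19), or 0.769-fold. The nearest mice of the groups were 0.075 apart. Aged mouse 1 was the lowest, and without it the difference was -0.23, the smallest when any mouse was left out. With slide row as a block it was -0.68.

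Nestin overlapped between the groups. The Nes probe (NM_016701) gave 3.71, 3.61 and 3.89 in the 3 young mice and 3.84, 3.71 and 3.98 in the 3 aged mice. The log2 difference was 0.11 (standard error 0.16), and it changed sign to -0.041 when arrays were scaled to their median. Syncoilin also overlapped. The Sync probe (NM_023485) gave 3.69, 3.98 and 3.58 in the 3 young mice and 3.93, 3.94 and 4.08 in the 3 aged mice. The aged mice lay close together (SD 0.085), and only young mouse 2 reached into their range. The log2 difference was 0.24 (standard error 0.17).

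Synemin had 5 probes, each well above background in every mouse, and they did not move alike. The brightest, A_55_P2052696 (NM_201639), gave 7.0, 6.64 and 7.30 in the 3 young mice and 6.23, 7.16 and 6.92 in the 3 aged mice, a log2 difference of -0.21 (standard error 0.29). The probe of the other transcript, A_55_P2052699 (NM_183312), differed by -0.46. The other 3 probes of NM_201639 differed by 0.15 (A_51_P185593), 0.27 (A_55_P2052690) and 0.12 (A_55_P2074353). The groups overlapped for all 5 probes. The pattern over the 6 arrays joined the first and the second of these probes (Pearson r = 0.90, n = 6 arrays) although they belong to different transcripts, and joined A_51_P185593 with A_55_P2052690 (r = 0.91), while A_55_P2052690 and A_55_P2052699 had r = -0.12. These correlations share the same 6 arrays and are given as a description. The brightest probe changed sign to 0.062 without aged mouse 1, which was the lowest of the 6 mice for it, and was -0.75 with slide row as a block.

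**Figure D2:**
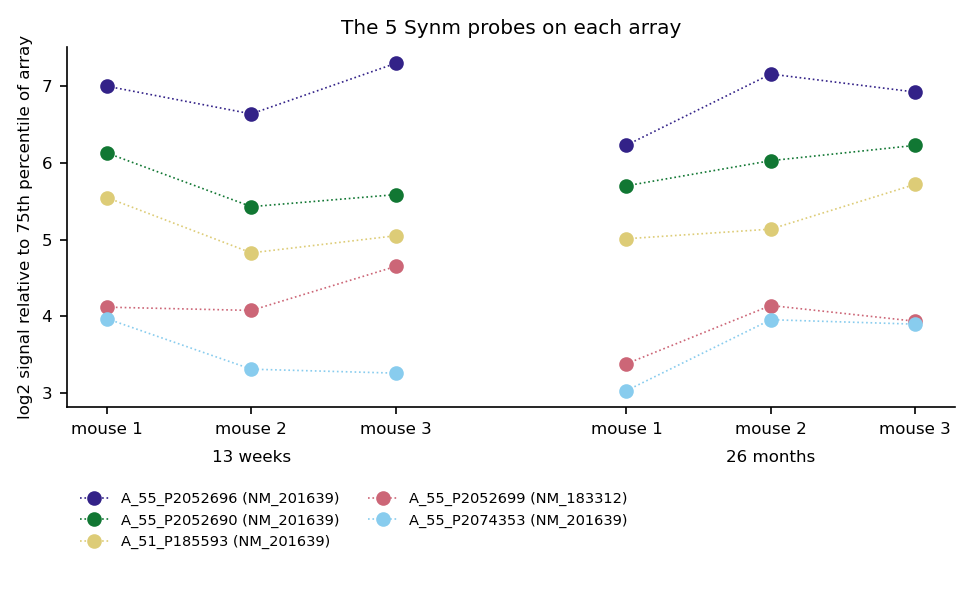
Log2 signal relative to the 75th percentile of the array (vertical axis) of the 5 Synm probes in each mouse, with dotted lines that only join the points of 1 probe. Aged mouse 1 was low for A_55_P2052696 and A_55_P2052699, and the 5 probes did not order the mice alike.

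Of the 8 members, 1 (Krt18) was past an adjusted p of 0.05 in limma with Benjamini-Hochberg adjustment over all genes, as were 0.254% of the 20900 genes compared (0.196% higher and 0.0574% lower in aged mice). The groups did not overlap for 4 members, with 3 higher in aged mice (Krt18, Krt8 and Des) and 1 lower (Vim), as was so for 21.8% of all genes (7.92% higher and 13.9% lower). Nothing is read from these counts, because the members were chosen with this comparison known and Krt8 passed the filter only through aged mice. Over all genes the median log2 difference was -0.062, and the 5 members of the muscle fibre and mesenchyme together with Krt19 lay between -0.55 and 0.24.

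**Figure D3:**
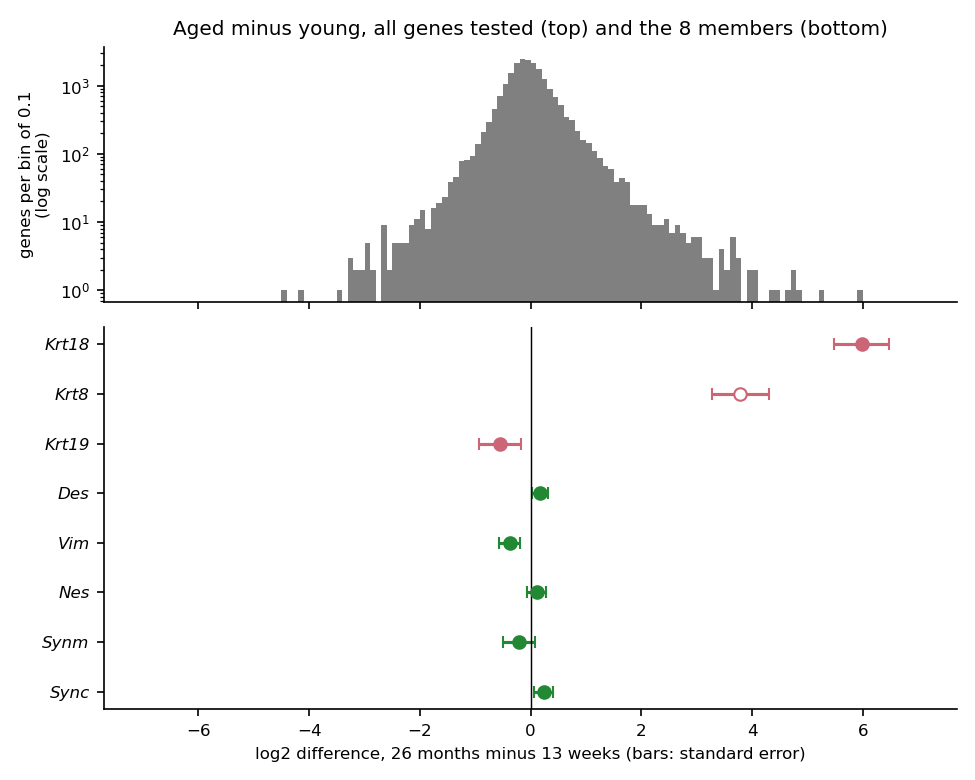
Log2 difference between aged and young mice (horizontal axis) of all 20900 genes (top, number of genes per bin on a log axis) and of the 8 members with the standard error as a bar (bottom). Krt18 at 5.98 was the largest increase among the genes compared. The open symbol of Krt8 rests on young values not well above background, and the other 6 members lay near 0.

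To see whether other keratins differed with age, all further keratin genes were examined by symbol. Of 51 such genes, 50 had a probe and 11 passed the filter on dim probes, while 28 were well above background on no array. The rest were well above background on 1 or 2 arrays and were not compared. Among these, Krt7 and Krt28 were so on 2 aged arrays each and Krt9 on 2 young arrays. In limma, 0 of the 11 were past the threshold of an adjusted p of 0.05 in either direction, and at an unadjusted p under 0.05 there were 0 higher and 1 lower. Over all 20900 genes, 14.4% were at an unadjusted p under 0.05, 1269 of them higher and 1747 lower in aged mice. The median log2 difference of the 11 keratins was -0.19, with 2 higher and 9 lower in aged mice. Among 4 type I keratins 1 was higher and 3 were lower, and among 6 type II keratins 1 was higher and 5 were lower. Krt82, a hair keratin of type II, had the lowest unadjusted p. It gave -2.31, -2.74 and -2.69 in the 3 young mice and -3.32, -2.92 and -3.39 in the 3 aged mice (log2 difference -0.63, standard error 0.21, adjusted p = 0.261 in limma). Krt31, a hair keratin of type I, differed by -0.27 (adjusted p = 0.454 in limma) and Krt79 by -0.24 (adjusted p = 0.549 in limma). The highest of the 11 was Krt14 at 0.36, which was well above background on 4 of the 6 arrays.

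**Figure D4:**
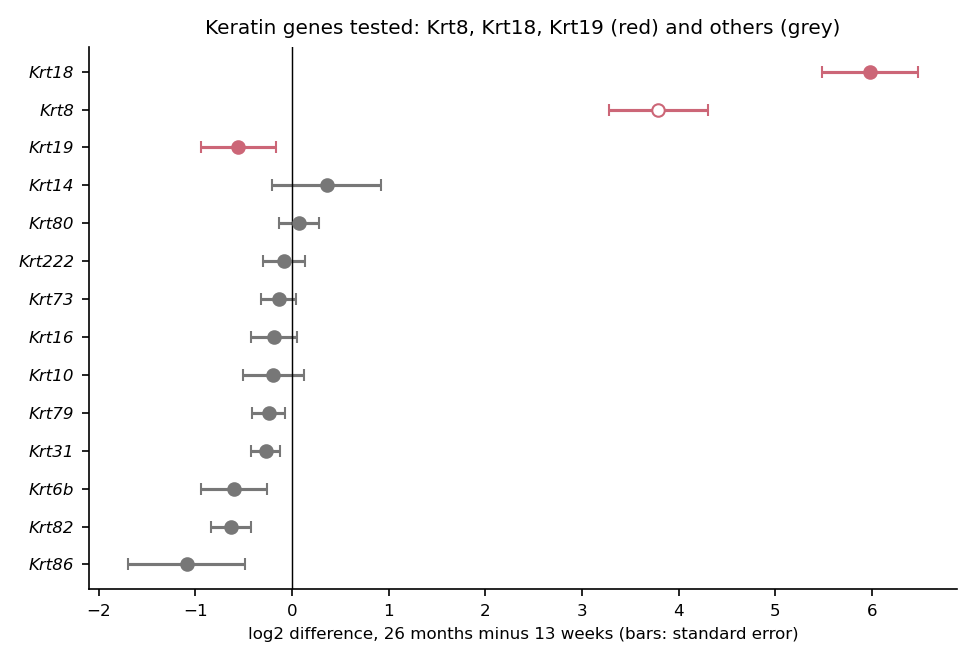
Log2 difference between aged and young mice (horizontal axis) with the standard error as a bar for the 14 keratin genes that passed the filter. Krt18, Krt8 (open, young values not well above background) and Krt19 are in red and the 11 others in grey. The others lay between -1.09 and 0.36.

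Genes beside Krt8 and Krt18 on the chromosome were also examined. Of the 5 protein-coding genes on the side of Krt8, all keratins, 4 were well above background on no array (Krt78, Krt4, Krt76 and Krt77) and Krt79 had overlapping groups. On the side of Krt18, the translation initiation factor Eif4b, next to it, gave 4.67, 4.85 and 4.54 in the 3 young mice and 4.99, 4.63 and 4.78 in the 3 aged mice (log2 difference 0.12, standard error 0.18). Tensin 2 (Tns2) differed by -0.82, Spryd3 by 0.34 and the insulin-like growth factor binding protein Igfbp6 by -0.66, with adjusted p of 0.468, 0.493 and 0.206 in limma. The groups did not overlap for 1 of these 4, Igfbp6, as was so for 21.8% of all genes, and nothing is read from this count. Soat2 was not compared, since its probe was well above background on 1 array.

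Other members of the filament family were taken from a list of 13 genes of neurons, glia, lens and nucleus, of which 9 passed the filter. In limma 0 of the 9 were past the threshold. At an unadjusted p under 0.05 there were 1 higher and 1 lower, beside 14.4% of all genes in either direction. The median log2 difference was -0.14. The lens filament gene Bfsp2 gave -1.01, -0.39 and -0.57 in the 3 young mice and -1.61, -1.44 and -1.96 in the 3 aged mice (log2 difference -1.01, standard error 0.23, adjusted p = 0.153 in limma), with no overlap. Iffo1, an orphan of the family, was 0.90 ± 0.32 (SD, n = 3) in young and 1.43 ± 0.14 (SD, n = 3) in aged mice (log2 difference 0.53, adjusted p = 0.322 in limma). Ina, the neuronal internexin, differed by -0.85 with overlapping groups (adjusted p = 0.556 in limma). The light, medium and heavy neurofilament genes and glial Gfap did not pass the filter.

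The proteins that anchor, fold and turn over these filaments were taken from a list of 30 genes, of which 28 passed the filter. In limma 0 of the 28 were past the threshold. At an unadjusted p under 0.05 there were 1 higher and 2 lower, beside 14.4% of all genes in either direction. The median log2 difference was 0.094. The largest difference was that of Hspb8, a small heat shock protein that works with Bag3 in clearing damaged filament proteins. It gave 6.0, 5.28 and 5.19 in the 3 young mice and 6.38, 6.77 and 8.32 in the 3 aged mice (log2 difference 1.67, standard error 0.51, adjusted p = 0.238 in limma). The groups did not overlap, and aged mouse 3 was well above the other aged mice. Dtna, the dystrobrevin that binds synemin and syncoilin, differed by 0.85 and epiplakin (Eppk1) by 0.75, both with overlapping groups (adjusted p = 0.433 and 0.567 in limma). Plectin (Plec), which ties desmin to the Z-disc and membrane, gave 8.02, 8.21 and 8.30 in the 3 young mice and 7.86, 7.94 and 7.88 in the 3 aged mice (log2 difference -0.28, adjusted p = 0.446 in limma). The desmin chaperone Cryab (alpha B-crystallin) differed by 0.42 and Hspb1 by 0.45, with overlapping groups. Desmoplakin (Dsp), which ties keratins and desmin to cell contacts, was well above background on no array. Plec, Cryab and Hspb1 were named for their role and not by the rule for named genes.

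Keratins 8 and 18 are products of simple epithelia, and markers of epithelium were measured beside them. Of 23 epithelial markers, 4 of which (Krt5, Krt7, Krt14 and Krt20) were also counted among the keratins, 5 passed the filter and 10 were well above background on no array. Among the markers of epithelial identity, Epcam and Cdh1 were well above background on no array. In limma 0 of the 5 were past the threshold, none of them at an unadjusted p under 0.05, and their median log2 difference was -0.11. Cldn7 gave -1.18, -1.62 and -1.48 in the 3 young mice and -1.65, -1.33 and -1.52 in the 3 aged mice. The laminin chain Lamb3 differed by -0.38 and the protease Prss8 by -0.20, with adjusted p of 0.756 and 0.612 in limma. The summed linear signal of all 23 markers was 1.37 to 1.93 times the 75th percentile in young mice and 1.24 to 2.33 times in aged mice, and these ranges overlapped.

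Mesothelium, the lining of body cavities, also makes Krt8, Krt18 and Krt19. Of 8 mesothelial markers, 7 had a probe and 1 passed the filter. That gene, mesothelin (Msln), rose in aged mice. It gave -3.68, -3.48 and -3.37 in the 3 young mice and -1.31, -1.84 and -1.66 in the 3 aged mice (log2 difference 1.91, standard error 0.20, adjusted p = 0.0262 in limma, higher in 3 of 3 aged mice). The other defining markers Wt1, Upk1b, Lrrn4 and Bnc1 were well above background on no array, and Upk3b and Gpm6a on 1 young array each. The summed signal of the list was 0.209 to 0.297 times the 75th percentile in young mice and 0.387 to 0.510 times in aged mice. Msln was the largest part of this sum in every aged mouse. The higher sum therefore does not show a rise of the other markers. The part of the Msln signal in the differences of Krt18 and Krt8 was not tested. The call for Msln was lost under 8 of 17 alternatives, with an adjusted p from 0.0171 to 0.114, and the log2 difference was 0.81 with normexp background correction.

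Vimentin and nestin are made by the cells between the fibres, and markers of these cells were measured beside them. The counts at an unadjusted p under 0.05 stand beside the 14.4% of all genes. Of 10 fibroblast markers, all of which passed the filter, 0 were past the threshold in limma, with 0 higher and 4 lower at an unadjusted p under 0.05 and a median log2 difference of -0.47. Collagen gene Col1a1 gave 4.10, 3.98 and 4.55 in the 3 young mice and 1.31, 3.03 and 3.59 in the 3 aged mice (adjusted p = 0.291 in limma). Col1a2 and decorin (Dcn) differed by -1.54 and -0.85 (adjusted p = 0.163 and 0.330 in limma). Of the 10 fibroblast markers, 8 were lower and 2 higher in aged mice, the latter being Dpt (0.81) and Ly6a (0.48), both with overlapping groups. The summed fibroblast signal was 492 to 552 times the 75th percentile in young mice and 258 to 387 times in aged mice, without overlap. The bright probe of Dcn was the largest part of this sum in every mouse. The 10 endothelial markers gave 0 past the threshold, 3 lower at an unadjusted p under 0.05 and a median of -0.34, with Cdh5 at -0.79, Flt1 at -0.60 and Pecam1 at 0.52 (adjusted p = 0.215, 0.323 and 0.693 in limma). The 10 markers of pericytes and smooth muscle gave 0 past the threshold, 3 lower at an unadjusted p under 0.05 and a median of -0.48, with Notch3 at -0.64, Kcnj8 at -0.56 and Myh11 at -0.52 (adjusted p = 0.322, 0.355 and 0.333 in limma). The summed signals of both lists were lower in all aged mice than in all young mice, at 47.5 to 69.4 against 71.3 to 91.3 for endothelium and 62.3 to 69.9 against 82.3 to 91.3 for pericytes and smooth muscle. The part of these cells in the lower Vim signal was not tested.

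Macrophages also make vimentin. Of 10 macrophage markers 9 passed the filter, with 0 past the threshold, 4 higher at an unadjusted p under 0.05 (14.4% of all genes in either direction) and a median of 0.46. Among the 4, Fcgr1 was well above background on 0 young and 3 aged arrays. It passed the filter only through aged mice, so a difference was built into its being counted. Cd68 differed by 1.08, C1qb by 0.89 and Adgre1 by 0.64 (adjusted p = 0.175, 0.125 and 0.232 in limma), and the groups did not overlap for any of the 3. Among all genes, 21.8% had groups without overlap (7.92% higher and 13.9% lower in aged mice). These 3 markers were named for their large differences. The summed macrophage signal was 41.0 to 48.8 in young mice and 45.7 to 47.4 in aged mice. Of 10 Schwann cell markers 8 passed the filter, with 1 lower past the threshold and a median of -0.83. That gene was Prx, which encodes periaxin of the myelin sheath, at 1.30 ± 0.05 (SD, n = 3) in young and 0.011 ± 0.17 (SD, n = 3) in aged mice (log2 difference -1.29, adjusted p = 0.0428 in limma, lower in 3 of 3 aged mice). Its call was lost under 10 of 17 alternatives, with an adjusted p from 0.0242 to 0.203.

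Nestin and vimentin also mark satellite cells and newly formed fibres. Of 14 markers of these, 13 passed the filter, with 0 past the threshold in limma, 7 higher and 0 lower at an unadjusted p under 0.05 (14.4% of all genes in either direction) and a median log2 difference of 0.98. Among the 7, Chrng was well above background on 0 young and 3 aged arrays, and Mymk on 1 young and 3 aged arrays. Chrng passed the filter only through aged mice and Mymk largely so, which built a difference into their being counted. Myogenin (Myog), a factor of muscle differentiation, gave -0.52, -0.22 and 0.04 in the 3 young mice and 1.12, 2.20 and 3.39 in the 3 aged mice (log2 difference 2.47, adjusted p = 0.149 in limma). Its order among the aged mice was that of Krt18. Embryonic myosin heavy chain (Myh3) gave 0.30, 0.53 and 0.89 in the 3 young mice and 2.77, 2.07 and 1.87 in the 3 aged mice (log2 difference 1.66, adjusted p = 0.0974 in limma), the opposite order among the aged mice. Myod1 differed by 1.20 with overlapping groups, and the satellite cell factor Pax7 by -0.019 (adjusted p = 0.421 and 0.981 in limma). Pax7 was named for its role and not by the rule for named genes. The summed signal of the list, set by the bright probes of Myh8 and Actc1, overlapped between the groups (721 to 1035 in young and 634 to 1023 in aged mice). The muscle fibre markers gave 0 of 12 past the threshold or at an unadjusted p under 0.05 and a median of -0.17, among them the myosins Myh1 (-0.33) and Myh4 (-0.21) and troponin Tnnt3 (-0.27).

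**Figure D5:**
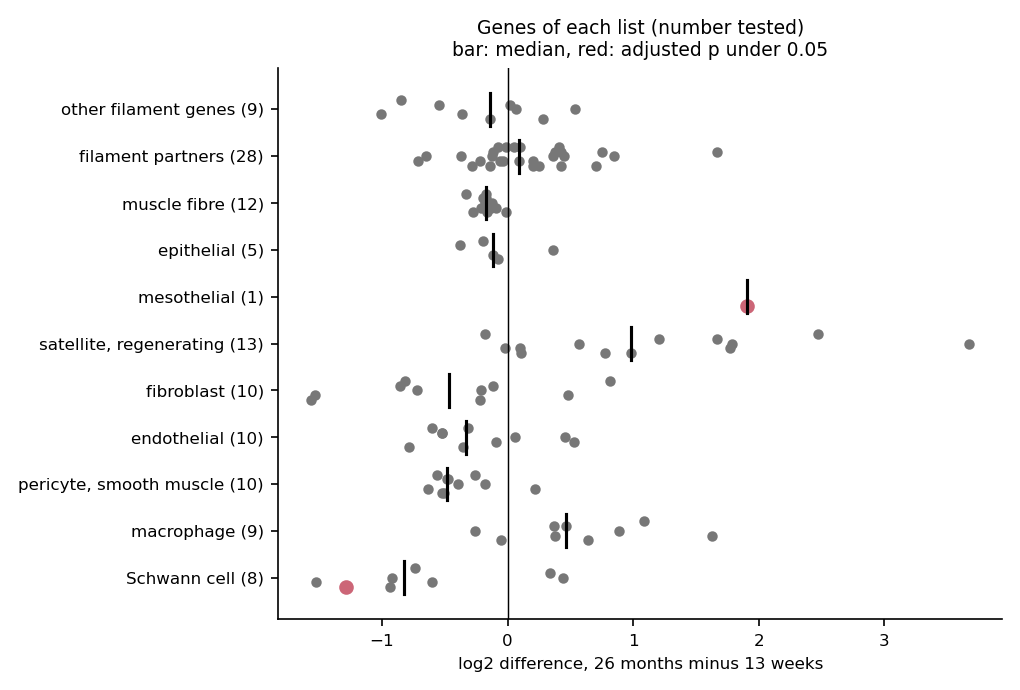
Log2 difference between aged and young mice (horizontal axis) of each gene that passed the filter (point) and the median of its list (bar), for filament genes, filament partners and cell type markers, with genes at an adjusted p under 0.05 in red. Msln at 1.91 and Prx at -1.29 were the genes past the threshold.

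The genes whose pattern over the 6 arrays was most like that of Krt18 were sought among 12683 other genes with a symbol that were well above background in every mouse. The 5 with the highest Pearson correlation (n = 6 arrays) were Gdap1l1 (r = 0.996), Wfdc17 (r = 0.991), Lrp11 (r = 0.990), Pkp2 (r = 0.989) and Nckap1l (r = 0.987). The arrays fall into 2 age groups. A gene that is higher in aged mice, with little spread within the groups beside that difference, therefore has a high correlation. In all, 269 of the 12683 genes had r above 0.9. Pkp2, plakophilin 2 of desmosomal plaques, gave 0.89, 0.85 and 0.71 in the 3 young mice and 1.94, 2.04 and 2.32 in the 3 aged mice. Wfdc17 gave -1.30, -1.43 and -1.26 in the 3 young mice and 0.53, 0.62 and 0.85 in the 3 aged mice. Gdap1l1 differed by 1.14, Lrp11 by 1.21 and Nckap1l, a gene of blood cells, by 0.65 on the log2 scale, less than the 5.98 of Krt18.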

How the data were processed

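RNA of the gastrocnemius of 3 young and 3 aged mice was measured on single-colour Agilent arrays, 1 per mouse. The authors deposited the Feature Extraction files (version 9.5 per the labels, 11.0.1.1 per the file headers), in which the processed signal is an intensity on a linear scale, background-subtracted and detrended within the array but not scaled between arrays. The intensities of the series matrix were identical to these. The methods give no normalization or test for the arrays.

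Of 62976 spots, 59305 were not controls. Flagged outlier spots were left out, log2 signals of the spots of a probe were averaged, and each array's 75th percentile was subtracted. Of 55681 probes, 12 with only flagged spots on some array were left out. Accessions were matched without version to RefSeq (GRCm38.p6), which named 28325 probes, while 27344 went by the identifier that the files give. Probes well above background on at least 3 of 6 arrays were kept, and a gene was represented by its kept probe with the highest mean, which left 20900 genes. No probe was saturated. The difference between the ages was fitted by lmFit and eBayes (limma 3.58.1, R 4.3.3), with Benjamini-Hochberg adjustment over all genes and a threshold of 0.05. The p-values and standard errors rest on the spread between 3 mice per group, with each gene's variance drawn by eBayes toward that of all genes. An exact two-sided permutation test of 3 against 3 cannot go below 0.1. The fit was tested on simulated data in which 200 of 20900 genes were given a log2 change. It called 0% of these at a change of 1, 75.5% at 2 and 88.5% at 3. Of the unchanged genes it called 0, 4 and 14. A gene that is not past the threshold is therefore not shown to be unchanged.

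The members and lists were chosen with earlier results of these data known. Named genes are the members, the genes of a list past the threshold or else the 3 with the largest difference among those well above background on all arrays, the 5 protein-coding genes on either side of Krt8 and Krt18, and the 5 genes most correlated with Krt18. Genes named beyond this rule were chosen after their values were seen. Alternatives were normexp background correction (offset 50) on median signals, quantile, median and detected-probe scaling, other filters, the mean of probes, the series matrix, a variance trend, slide row and replicate number as blocks, and leaving out each mouse. Probe sequences were not used here, so the place of a probe in its transcript and its match to other genes were not tested.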

Additional observations from a re-analysis of the deposited data

How the results depend on the processing

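Genes past the threshold numbered 53, a count that moved most with single mice. It was between 1 (without aged mouse 3) and 199 (without aged mouse 1) when a mouse was left out, 8 with no filter on dim probes, and 35 when detection on every array was required. With the replicate number as a block it was 5. The numbers only name the mice, since the deviations of same-numbered mice correlated at -0.062, -0.27 and 0.028, and the mice were not paired. No keratin beyond the members, no other filament gene and no filament partner was past the threshold under any of the 17 alternatives.

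Differences of members that moved by more than the SD between mice were Krt8 under normexp (1.0), Des after quantile normalization (0.28) and median scaling (0.021), Nes with median scaling (-0.041), and Krt18 (5.06), Vim (-0.68) and Synm (-0.75) with slide row as a block, a fit that rests on aged mouse 1. Krt18 was between 5.61 and 6.43 and Krt8 between 3.39 and 4.29 when a mouse was left out, and the ranges were -0.96 to -0.28 for Krt19, 0.12 to 0.22 for Des, -0.48 to -0.23 for Vim, 0.039 to 0.18 for Nes, -0.40 to 0.062 for Synm and 0.15 to 0.35 for Sync. Krt8 gave no value when detection on every array was required. The sign was kept under every alternative run for Krt18, Krt8, Krt19, Des, Vim and Sync, but not for Nes (median scaling) and Synm (without aged mouse 1). Signal over background limits Krt8 in young mice and Krt19 in all mice, and each rests on 1 probe.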
